A study of Mus musculus with 6 samples.

Results

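RNA sequencing of NOR-10, a line of fibroblasts from the skeletal muscle of the mouse, was used to compare the cytosolic ribosomal protein genes after D-galactose (D-gal) with those in control cells. The members were the genes whose symbol is Rpl or Rps followed by a number, with an optional suffix such as a, x or l, and Rpsa, Rplp0, Rplp1, Rplp2 and Fau, without the pseudogenes marked by -ps. They were 85 of the 34745 genes in the deposited table, of which 51 encode proteins of the large subunit and 34 proteins of the small subunit. The study induced senescence with D-gal in culture and measured gene expression in 3 control libraries (Con-1 to Con-3), made from cells given PBS, and in 3 D-gal libraries (Dgal-1 to Dgal-3), made from cells given 20 mg/mL D-gal for 3 days. All 6 libraries came from the same cell line with no other agent or genetic change, and no source states that the libraries of a group were separate cultures, so p-values measure only the spread between these libraries.

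A ribosome is built from ribosomal RNA and a fixed set of ribosomal proteins, with a small subunit that reads the mRNA and a large subunit that joins the amino acids. The mRNAs of these proteins are among the most abundant of a cell, and most start with a C followed by a run of pyrimidines, the 5′ terminal oligopyrimidine (5′TOP) motif, through which mTOR signalling and the protein Larp1 adjust their translation and stability. The genes are therefore often followed as a single group, and several unassembled ribosomal proteins are known to bind Mdm2, the ubiquitin ligase of p53.

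Total counts ranged from 16876087 to 20830349 in the control libraries and from 13759108 to 15157064 in the D-gal libraries. All 9 fibroblast markers had counts in at least 1 library, but Lum had 1 count in all, and of the 8 myogenic markers Pax7, Myf5 and Myod1 were at 0 in every library. Summed over the 9 fibroblast markers, normalized counts lay between 120000 and 123400 in the control libraries and between 78750 and 80840 in the D-gal libraries. Of the 8 that were tested 6 were lower, among them Col1a1, Col1a2 and Vim, which make up most of the sum, while Pdgfrb was higher (0.19, adjusted p = 0.00267) and Pdgfra did not pass (-0.084, adjusted p = 0.0679). The myogenic markers, mostly Acta1 and Des, summed to between 89.8 and 102 normalized counts in the control libraries and to between 61.7 and 67.5 in the D-gal libraries, and the 4 endothelial markers to between 75.9 and 90.6 and between 51.8 and 56.8. The 4 immune markers summed to between 67.7 and 282 normalized counts in the control libraries, with Con-1 highest, and to between 71.8 and 90.6 in the D-gal libraries. Genes of the mitochondrial genome held 4.34 ± 0.095% of the counts in the control libraries and 4.91 ± 0.064% in the D-gal libraries (SD, n = 3). Whether any of these differences has a part in the values of the ribosomal protein genes was not tested.

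The annotated starts were searched for a pyrimidine tract, here a C followed by C or T over at least 8 bases in all. It could lie anywhere between 30 bases before and 50 bases after the start, and the longest was taken. A 5′TOP motif stands at the very start of the mRNA, so a tract elsewhere in this window is not shown to be one. RefSeq promoters (GRCm38.p6, 250 bases before to 50 after the start) were at hand for 64 of the 85 members. Such a tract stood in a promoter of 50 of these members (78.1%), against 26.0% of the 27025 genes with a promoter. A gene with several promoters was counted once, if any of them matched. The tract was found for 24 of the 31 members with a promoter that were lower after D-gal (77.4%) and for 4 of the 5 that were higher (80.0%). The windows of 30 bases are given for the named members with the largest falls and rises whose promoter held the tract, with the tract in capitals, so that the genes that fell can be read beside those that rose. The first 6 belong to genes that fell and the last 4 to genes that rose. With the first base of the annotated start as 1, the tracts began at 41 for Rpl41 and Rps2, 23 for Rps7, 1 for Rpl38 and -2 for Rps18. For Rpl35a the tract began at 25 or -5, depending on the annotated start. Among the genes that rose they began at -4 for Rpl15 and Rpl27a, -20 for Rpl5 and -22 for Rps27l. The tracts of Rpl41 and Rps2 end where the window ends.
Rpl41, chr10:128549119-128549148, minus strand: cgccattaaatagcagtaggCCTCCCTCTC
Rpl38, chr11:114668575-114668604, plus strand: tcgttCTTTCCCCgttctcttcggttctca
Rpl35a, chr16:33056472-33056501, plus strand: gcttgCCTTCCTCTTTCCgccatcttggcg
Rps18, chr17:33955643-33955672, minus strand: ttccgCTCTCTCTTCCacaggaggcctaca
Rps7, chr12:28635907-28635936, minus strand: ccccaCCTCTTTTCTTCCgccacccggata
Rps2, chr17:24720083-24720112, plus strand: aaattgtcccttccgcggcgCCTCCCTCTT
Rpl15, chr14:18270966-18270995, minus strand: gaaagCCTTCTTCCTTTCCTCTggcggcag
Rpl27a, chr7:109519186-109519215, plus strand: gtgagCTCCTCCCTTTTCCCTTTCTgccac
Rpl5, chr5:107900503-107900532, plus strand: agccaCTCTTTCTCacgtcgcttgcgtgct
Rps27l, chr9:66946059-66946088, plus strand: ctccaCTCCTCTCCactcctccccgccgcc
The same promoters were searched on both strands for CCGGAAG, a binding motif of GABP, and for AAGATGG, a binding motif of YY1, which are common in ribosomal protein promoters. Of the members with a promoter 40.6% held CCGGAAG, against 9.93% of all genes with a promoter. AAGATGG was held by 17.2% of these members and by 7.28% of all genes with a promoter. TATAAA on the sense strand was held by 9.38% of these members and by 9.77% of all genes with a promoter. These matches describe the letters in the window and say nothing about binding.

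To find out how the members responded to D-gal, counts were scaled by edgeR's TMM factors to normalized counts (reads at the mean library size), and each of the 13407 genes with enough counts was tested by quasi-likelihood, with p-values adjusted over all of them after Benjamini and Hochberg. The filter kept 81 of the 85 members, 48 of the large and 33 of the small subunit. After D-gal, 42 members were lower at an adjusted p under 0.05, 6 were higher and 33 did not pass the test. Of all genes tested, 34.8% passed the test, 17.8% lower and 16.9% higher. No member reached the study's second criterion, an absolute log2 fold change of 1 or more beside the adjusted p, which 4.21% of all genes tested met. In edgeR 56 of the 81 members had an unadjusted p under 0.05 (69.1%), against 44.6% of all genes tested.

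The log2 fold changes of the members ran from -0.44 to 0.51 with a median of -0.20, a fold of 0.868, against a median of 0.0036 over all genes tested. The D-gal libraries lay all below the control libraries for 51 members and all above them for 8, where 25.0% and 24.1% of all genes tested showed this. The exact permutation test of a single gene cannot go below p = 0.1 with 3 libraries against 3, so this ordering is the most that it can show. Fewer mRNAs per cell and a change in the mix of cells cannot be told apart in bulk libraries, and counts scaled to the library give each mRNA relative to the others.

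The members together held 2.25%, 2.21% and 2.21% of the counts in control and 1.93%, 1.94% and 1.96% after D-gal. All D-gal shares lay below all control shares. The means were 2.22 ± 0.023% and 1.94 ± 0.013% (SD, n = 3), a share that fell by 12.6%.

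**Figure D1:**
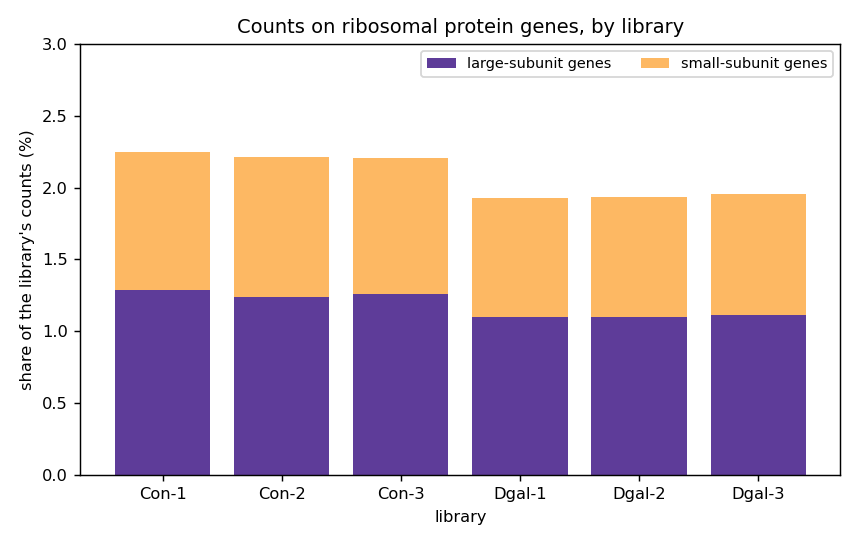
Share of each library's counts (percent, from 0) on the 51 large-subunit genes (lower part of each bar) and the 34 small-subunit genes (upper part) in the 3 control and 3 D-gal libraries. The bars of the D-gal libraries end between 1.93% and 1.96% and those of the control libraries between 2.21% and 2.25%.

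The large and the small subunit were then set side by side. Among large-subunit genes 24 were lower, 5 higher and 19 did not pass, and among small-subunit genes 18 were lower, 1 higher and 14 did not pass. The median log2 fold change was -0.21 for the large subunit (quartiles -0.31 and -0.073) and -0.20 for the small subunit (quartiles -0.28 and -0.10). Their shares of the counts fell by 12.5% and 12.8%. The ratio of large-subunit to small-subunit counts was 1.34, 1.28 and 1.32 in control and 1.32, 1.31 and 1.32 after D-gal. The D-gal ratios lay within the range of the control ratios, whose spread of 1.31 ± 0.032 was wider than that of the D-gal libraries, 1.32 ± 0.0021 (SD, n = 3). No difference between the subunits larger than the spread of the libraries was seen in this ratio, and the difference of the group means (D-gal minus control) was 0.0045, or -0.013 without Con-2.

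**Figure D2:**
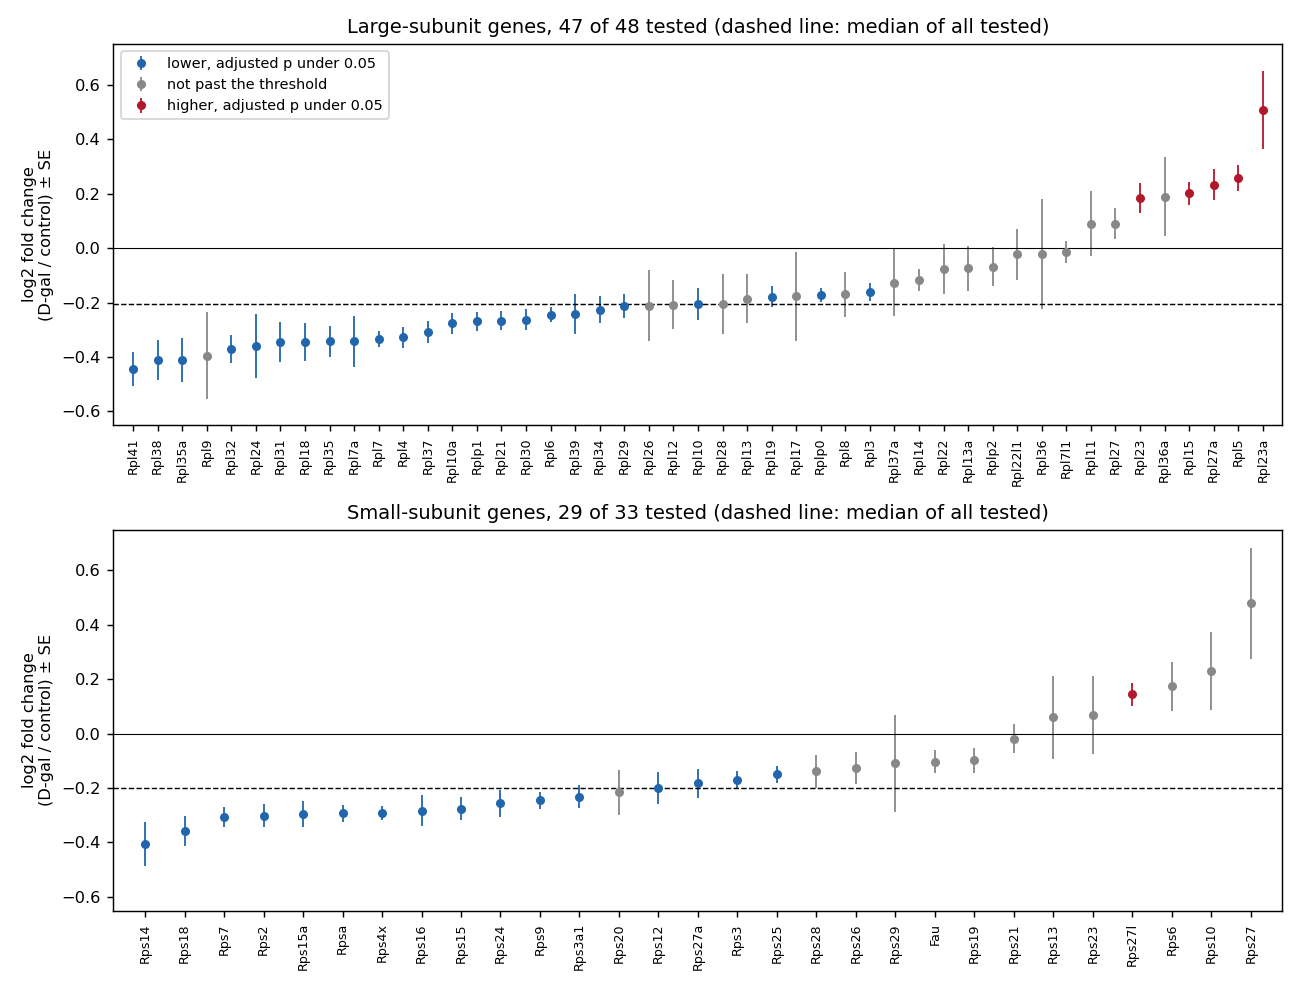
log2 fold change (D-gal over control, vertical axis) with its SE for 47 of the 48 large-subunit genes (top) and 29 of the 33 small-subunit genes (bottom) that were tested, in order of size, with colours for the edgeR call. The dashed medians, over all tested, lie at -0.21 and -0.20, and the points run from -0.44 for Rpl41 to 0.51 for Rpl23a.

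The stalk of the large subunit recruits the elongation factors and is made of Rplp0 with Rplp1 and Rplp2, on a base that holds Rpl12. Of these 4 genes 2 were lower and 2 did not pass. For this and the other parts of the ribosome below, 51.9% of all members tested and 17.8% of all genes tested were lower. Whether any part differs from the other members was not tested. Rplp0, also used as a reference gene in quantitative PCR, had 29690, 30600 and 30090 normalized counts in control and 26760, 27300 and 26070 after D-gal. The groups did not overlap (log2 fold change -0.17 ± 0.026 (SE), adjusted p = 0.00161). Rplp1, an acidic protein of the stalk's tip, had 10360, 9724 and 9631 normalized counts in control and 8188, 8135 and 8334 after D-gal. Again every D-gal library was lower (log2 fold change -0.27 ± 0.035 (SE), adjusted p = 0.000764), and with GC and length offsets in the fit the estimate was -0.15 (adjusted p = 0.0108). Rplp2, its partner, had 3671, 3569 and 2996 normalized counts in control and 3330, 3218 and 3218 after D-gal. Con-3 was the lowest of all 6 libraries, so the groups overlapped (log2 fold change -0.068 ± 0.072 (SE), adjusted p = 0.504), and without Con-3 the gene passed the test (-0.15, adjusted p = 0.0266). Rpl12 gave 390.4, 344 and 389 normalized counts in control and 346, 296 and 330.2 after D-gal. One D-gal library lay among the control values (log2 fold change -0.21 ± 0.09 (SE), adjusted p = 0.11).

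Rpl5 and Rpl11 form with 5S rRNA the 5S ribonucleoprotein, which enters the large subunit and, when assembly is disturbed, binds Mdm2. Rpl5 was among the few members that rose. It had 1217, 1244 and 1176 normalized counts in control and 1451, 1517 and 1382 after D-gal, with every D-gal library above every control library (log2 fold change 0.26 ± 0.049 (SE), adjusted p = 0.00469). Rpl11, with far fewer reads on its row, had 140.3, 147 and 162 normalized counts in control and 156, 143 and 178 after D-gal. Its groups overlapped (log2 fold change 0.089 ± 0.12 (SE), adjusted p = 0.607), and the difference from Rpl5 was not tested. The level of the Rpl11 row is uncertain, since its transcript shares sequence with other genes, as set out with the levels.

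The tunnel through which the new chain leaves the ribosome is lined, from its narrow inner part to its mouth, by Rpl4, Rpl17, Rpl19, Rpl23a, Rpl26, Rpl31, Rpl35 and Rpl39. Of these 8 genes 5 were lower (62.5%, against 51.9% of all members tested), 1 was higher and 2 did not pass. Rpl4, Rpl19, Rpl31, Rpl35 and Rpl39 fell, with log2 fold changes from -0.35 for Rpl31 to -0.18 for Rpl19. Rpl17 (-0.18, adjusted p = 0.446) and Rpl26 (-0.21, adjusted p = 0.255) did not pass, and Rpl26 had one of the widest spreads, with a coefficient of variation of 17.3% among the control libraries. Rpl23a, a docking site of the signal recognition particle, was the member with the largest rise and is taken up with its near copies.

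The largest falls of the large subunit were those of Rpl41, Rpl38, Rpl35a, Rpl32 and Rpl24. Rpl41, a very short peptide at the contact with the small subunit (chr10:128548114-128549305 in the deposited table, minus strand), had 12780, 10980 and 10790 normalized counts in control and 8633, 8578 and 8199 after D-gal. Con-1 stood above the other 2 control libraries and all D-gal libraries lay below them (log2 fold change -0.44 ± 0.063 (SE), adjusted p = 0.00117), which is a level that fell by 26.4%. Rpl38, known for its role in the translation of Hox mRNAs, had 1264, 1064 and 1121 normalized counts in control and 889, 884 and 821 after D-gal. The groups were apart (log2 fold change -0.41 ± 0.073 (SE), adjusted p = 0.00347). Rpl35a, mutated in some patients with Diamond-Blackfan anaemia, an inherited failure of red cell formation, had 900.2, 803 and 809.9 normalized counts in control and 696, 589 and 606 after D-gal (log2 fold change -0.41 ± 0.08 (SE), adjusted p = 0.0056). The lowest control library lay above the highest D-gal library. Rpl32 had 9195, 8493 and 8656 normalized counts in control and 6469, 6592 and 7300 after D-gal, without overlap (log2 fold change -0.37 ± 0.052 (SE), adjusted p = 0.00113). Rpl24, which forms a bridge to the small subunit, had 4597, 4937 and 4521 normalized counts in control and 3866, 2911 and 4192 after D-gal. Dgal-2 was far below the other D-gal libraries, and the coefficient of variation of 18.2% was the widest of the 65 members with at least 500 normalized counts (log2 fold change -0.36 ± 0.12 (SE), adjusted p = 0.0467). Without Dgal-2 the log2 fold change was -0.22 (adjusted p = 0.0255), and without Con-2 the call was lost (-0.32, adjusted p = 0.128), as it was without Con-1, Con-3 or Dgal-1.

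The other large-subunit genes that were lower, beside those of the stalk, the tunnel and the paralog pairs, were Rpl18, Rpl7a, Rpl37, Rpl10a, Rpl21, Rpl30, Rpl6, Rpl34 and Rpl29. Their log2 fold changes lay between -0.35 for Rpl18 and -0.21 for Rpl29. The log2 fold change of Rpl7a was -0.23 without Con-1, and its call was lost without Dgal-2 (adjusted p = 0.0727). Rpl28, Rpl13, Rpl8, Rpl37a, Rpl14, Rpl13a, Rpl36, Rpl27 and Rpl36a did not pass the test, with estimates from -0.20 for Rpl28 to 0.19 for Rpl36a.

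In the small subunit the path of the mRNA is formed at its entry by Rps2, Rps3 and Fau and at its exit by Rps14, Rps26 and Rps28, among others. At the entry 2 of 3 genes were lower and none was higher, and of the genes named at the exit Rps14 was lower. Rps2, part of the channel that unwinds the mRNA, had 13900, 15230 and 14280 normalized counts in control and 11660, 11370 and 12180 after D-gal. All D-gal libraries were lower (log2 fold change -0.30 ± 0.042 (SE), adjusted p = 0.00103). Rps14, lost in the human 5q deletion syndrome, had 5617, 6855 and 5462 normalized counts in control and 4465, 4664 and 4404 after D-gal. Con-2 was the highest library, and the groups did not overlap (log2 fold change -0.41 ± 0.081 (SE), adjusted p = 0.00607).

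The head of the small subunit holds 10 members, of which 6 were lower (60%, against 51.9% of all members tested), none was higher and 4 did not pass. Rps18, which contacts the large subunit, had 1794, 1599 and 1619 normalized counts in control and 1328, 1327 and 1259 after D-gal (log2 fold change -0.36 ± 0.055 (SE), adjusted p = 0.00171). Its groups did not overlap. Rps15, the gene with the highest level per kilobase of the small subunit, had 13910, 13150 and 12340 normalized counts in control and 10730, 10950 and 10880 after D-gal (log2 fold change -0.28 ± 0.043 (SE), adjusted p = 0.00184). Here too every D-gal library was below every control library. Rps10, the member of the head with a positive estimate, did not pass the test (0.23, adjusted p = 0.255). Outside the head, Rps7, also mutated in Diamond-Blackfan anaemia, had 2539, 2548 and 2502 normalized counts in control and 1990, 2120 and 2027 after D-gal, again without overlap (log2 fold change -0.31 ± 0.037 (SE), adjusted p = 0.00052). Rps6, the substrate of S6 kinase, did not pass (0.17, adjusted p = 0.173). Rps15a, Rpsa, Rps16, Rps24, Rps9, Rps3a1, Rps12, Rps3 and Rps25 were also lower, with log2 fold changes from -0.30 for Rps15a to -0.15 for Rps25. The call of Rps12 was lost without Con-2, Con-3, Dgal-1 or Dgal-2, with an adjusted p of up to 0.093. Rps20, Rps28, Rps26, Rps29, Rps19, Rps21 and Rps23 did not pass, with estimates from -0.22 for Rps20 to 0.068 for Rps23. A pseudogene row named after Rps26 had more reads than Rps26 and is taken up with the near copies.

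Besides Rpl5 and Rpl23a, the members that rose were Rpl15, Rpl27a, Rpl23 and Rps27l. Rpl15, which lies deep in the large subunit's rRNA, had 1709, 1693 and 1721 normalized counts in control and 1894, 1934 and 2059 after D-gal (log2 fold change 0.20 ± 0.042 (SE), adjusted p = 0.00727). Rpl27a had 769, 776 and 709.9 normalized counts in control and 902, 851 and 898 after D-gal (log2 fold change 0.23 ± 0.057 (SE), adjusted p = 0.015). Rpl23, which lies at the interface of the subunits and also binds Mdm2, had 1088, 1069 and 982 normalized counts in control and 1144, 1214 and 1209 after D-gal (log2 fold change 0.18 ± 0.055 (SE), adjusted p = 0.0335). In these 3 genes the groups did not overlap. Rpl5, Rpl15 and Rpl27a kept their call with any single library left out, while that of Rpl23 was lost without Con-2, Con-3, Dgal-2 or Dgal-3, with an adjusted p of up to 0.0952.

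**Figure D3:**
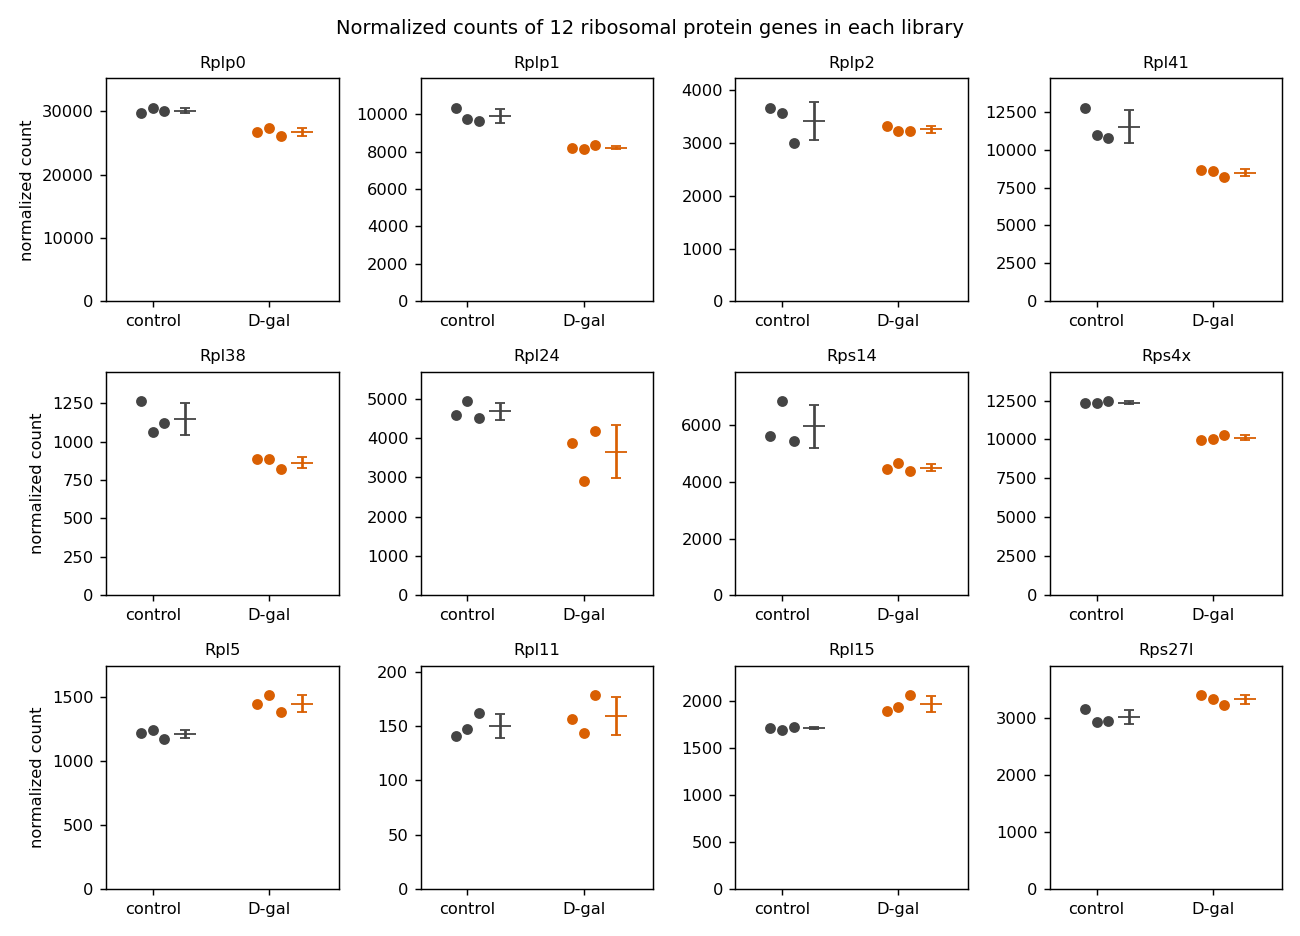
Normalized counts (vertical axes, from 0, a scale for each gene) of 12 ribosomal protein genes in the 3 control and 3 D-gal libraries, as points, with mean ± SD beside them. Points of the groups overlap for Rplp2 and Rpl11, lie lower after D-gal for Rplp0, Rplp1, Rpl41, Rpl38, Rpl24, Rps14 and Rps4x, and lie higher for Rpl5, Rpl15 and Rps27l.

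Some ribosomal protein genes have a paralog that can take their place or is used in particular tissues. Of the 7 paralogs, Rpl10l, Rpl39l and Rps4l were listed at 0 in all libraries (Rps4l is annotated as a transcribed processed pseudogene), and Rpl3l, a striated muscle form of Rpl3, had 1 count, in Con-2. Rps27l, a p53 target, had 3147, 2933 and 2935 normalized counts in control and 3396, 3334 and 3231 after D-gal (log2 fold change 0.14 ± 0.041 (SE), adjusted p = 0.0278). All D-gal libraries were above all control libraries, but the call was lost without Con-2, Con-3, Dgal-1 or Dgal-2, with an adjusted p of up to 0.0876. Rpl7l1, a nucleolar relative of Rpl7, had 1683, 1677 and 1721 normalized counts in control and 1665, 1617 and 1745 after D-gal, which overlapped (log2 fold change -0.015 ± 0.041 (SE), adjusted p = 0.809). Rpl22l1 had 677, 694 and 729 normalized counts in control and 737, 588 and 744 after D-gal, with Dgal-2 the lowest of all libraries (log2 fold change -0.022 ± 0.093 (SE), adjusted p = 0.881).

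The genes the paralogs are named after were mostly lower. Rpl7 had 11970, 11440 and 11790 normalized counts in control and 9317, 9390 and 9199 after D-gal, the smallest adjusted p of any member (log2 fold change -0.33 ± 0.028 (SE), adjusted p = 9.67e-05). Rps4x, encoded on the X chromosome, had 12330, 12310 and 12450 normalized counts in control and 9994, 10050 and 10280 after D-gal (log2 fold change -0.29 ± 0.026 (SE), adjusted p = 0.000118). In both the spread within a group was small beside the gap between the groups. Rpl3, near the site of peptide bond formation, gave a log2 fold change of -0.16 (adjusted p = 0.00596), Rpl10, which is added late to the large subunit, -0.21 (adjusted p = 0.0289) and Rpl39 -0.24 (adjusted p = 0.0343). Rpl22, an RNA-binding protein at the surface of the large subunit, had 1709, 1632 and 2011 normalized counts in control and 1563, 1627 and 1882 after D-gal, with wide overlap (log2 fold change -0.077 ± 0.093 (SE), adjusted p = 0.567). Fau and Rps27a are made as fusions to a ubiquitin-like protein and to ubiquitin. Rps27a had 757, 728 and 776 normalized counts in control and 674, 674 and 642 after D-gal (log2 fold change -0.18 ± 0.054 (SE), adjusted p = 0.032). Fau had 2998, 2857 and 2871 normalized counts in control and 2672, 2616 and 2840 after D-gal (log2 fold change -0.10 ± 0.042 (SE), adjusted p = 0.0973). The groups of both genes were apart, though Fau did not pass the test. The call of Rpl10 was lost without Con-1, Con-2, Con-3 or Dgal-2 (adjusted p of up to 0.0794), that of Rpl39 without Con-1, Con-3, Dgal-1 or Dgal-2 (up to 0.111) and that of Rps27a with any library but Con-2 left out (up to 0.094).

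To compare levels between genes, normalized counts were divided by the length of all exons in kilobases and by the library size (RPKM). On this scale the highest levels of the large subunit were those of Rplp1, with 1183 ± 47.5 RPKM in control, and Rplp0, with 1082 ± 16.5 (SD, n = 3), which stood further apart than their spread. The order depends on the scale. In the deposited FPKM the control means were 1179 for Rpl8, 1177 for Rplp1, 909.5 for Rpl4 and 631.3 for Rplp0. The highest of the small subunit was Rps15 with 1242 ± 74.0 RPKM in control and 1026 ± 10.6 after D-gal. At the low end stood Rpl9 with 2.37 ± 0.224 RPKM and Rpl11 with 3.31 ± 0.241 in the large subunit, and Rps13 with 1.50 ± 0.142 and Rps27 with 2.73 ± 0.34 in the small one. The transcript of Rps27 shared 98.7% of its 31-base words with other genes, that of Rpl9 93.5%, that of Rps13 87.5% and that of Rpl11 63.1%. The levels of these rows are therefore uncertain.

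The falls stood mostly among members with many reads. Of the 60 members with a mean of at least 1000 normalized counts, 40 were lower and 4 higher. Of the 21 members below this level 2 were lower and 2 higher. Over all genes tested, at any level, 17.8% were lower and 16.9% higher. The shares of all genes at each level were not counted, and a change is harder to detect in a row with few reads. Rpl23a, Rps27, Rpl9 and Rpl27, all below this level, were called lower once the reads of their near copies were added. Over the 81 members, which share the same libraries, Pearson's r between log2 mean normalized count and log2 fold change was -0.51 (Spearman's rho -0.44), a description across genes that are not independent. With GC content r was -0.059 and with exon length -0.088. The median coefficient of variation within a group was 3.83% for members with at least 500 normalized counts.

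Ribosomal protein genes have many processed copies in the genome, and a read that matches several places can be assigned to any of them or dropped. How the study assigned such reads is not given in the sources used here. In the GENCODE M21 annotation (GRCm38), 34 members had a near copy, meaning a gene elsewhere that holds at least 50% of the 31-base words of the member's transcript, and there were 107 such copies, beside 3 genes that overlap their member. The median member shared 49.3% of its words with other genes. Members with at least 50% of words shared and members below that had medians of -0.20 and -0.20, with 22 of 40 and 20 of 41 lower and 1 and 5 higher. In the deposited table, 19 rows were near copies or named as a pseudogene of a member and had at least 100 counts, and 8 of them had more counts than the member itself. Rps26-ps1, a pseudogene by name only, had 38378 counts over the 6 libraries against 33854 of Rps26. It was lower in edgeR (log2 fold change -0.26, adjusted p = 0.00153). Rpl39-ps, also by name only, had 10058 against 7627 of Rpl39 (-0.44, adjusted p = 0.00271). With pseudogene rows added Rpl39 gave -0.35 (adjusted p = 0.00494). After D-gal 14 of the 19 rows were lower and none was higher by the adjusted p of edgeR, and all 19 estimates were negative. Of all genes tested 17.8% were lower and 16.9% higher. Rows that share sequence with their member can hold its reads, so they do not count as separate genes that changed.

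For 6 members, of which 5 are given here, adding the reads of the near copies changed the call. Rpl23a had 101, 113 and 69 counts in control and 112, 111 and 91 after D-gal, which after normalization were 88.0, 92.2 and 69.7 and 126, 121 and 109.7 and made it the largest rise (log2 fold change 0.51 ± 0.14 (SE), adjusted p = 0.0278). Rpl23a-ps3, annotated as a processed pseudogene that holds 76.8% of its words, had 5820, 6024 and 4927 counts in control and 4046, 4187 and 3800 after D-gal, 48.2 times as many in all (log2 fold change -0.13 ± 0.029 (SE), adjusted p = 0.011). With both rows added the log2 fold change of Rpl23a was -0.12 (adjusted p = 0.0171), so the direction turned. The rise of the row alone was lost without Con-1, Con-3, Dgal-1 or Dgal-2 (adjusted p of up to 0.0785). Rps27 had 61, 60 and 41 counts in control and 72, 62 and 43 after D-gal (log2 fold change 0.48 ± 0.20 (SE), adjusted p = 0.108). Rps27rt, a retrogene with 98.7% of its words, had 3329, 3425 and 2912 counts in control and 2173, 2225 and 1940 after D-gal (log2 fold change -0.26 ± 0.037 (SE), adjusted p = 0.00115), and the sum of both gave -0.25 (adjusted p = 0.00172). Rpl9, near the base of the stalk, had 143, 163 and 109 counts in control and 91, 95 and 61 after D-gal against 4475, 4878 and 3916 and 2819, 3002 and 2840 on Rpl9-ps6. Its estimate went from -0.40 (adjusted p = 0.0933) to -0.27 (adjusted p = 8.77e-04) with the copy added. Rpl27 turned from 0.090 (adjusted p = 0.254) to -0.23 (adjusted p = 0.00184) and Fau went from -0.10 to -0.14 (adjusted p = 0.00995). With near copies added 48 members were lower and 5 higher, in place of 42 and 6, a setting chosen after the data had been seen.

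**Figure D4:**
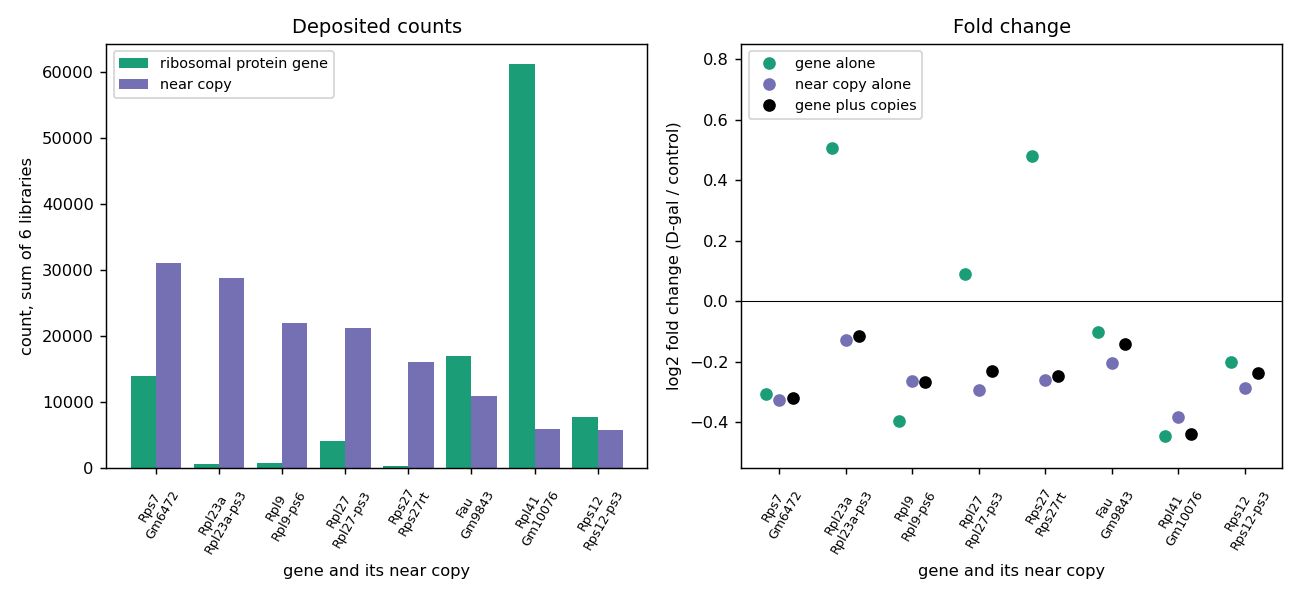
Left, deposited counts summed over the 6 libraries (vertical axis, from 0) of 8 ribosomal protein genes and of a near copy of each. Right, log2 fold change (D-gal over control) of the gene alone, of the copy alone and of the gene with its copies added. Rpl23a, Rps27 and Rpl27 lie above 0 alone and below 0 with the copies added.

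Apart from copies, 27 members overlapped another annotated gene on the same strand and 19 one on the opposite strand, among them 25 of the 48 members that passed the test. Whether the counting used strand is not given in the sources used here, so reads of such pairs cannot be told apart.

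Related genes were described from lists, with the same test, beside the 17.8% lower and 16.9% higher of all genes tested. Of 20 genes outside the ribosome whose mRNAs carry a 5′TOP motif, most of them translation factors, 13 were lower (65%), 1 was higher and 6 did not pass (median log2 fold change -0.14). The list also holds genes of other roles, such as Vim, an intermediate filament gene that is among the fibroblast markers and was lower (-0.50, adjusted p = 0.000225). Eif4b, a helper of the helicase that unwinds mRNAs, had 17270, 16990 and 17180 normalized counts in control and 13930, 13850 and 13740 after D-gal (log2 fold change -0.31 ± 0.023 (SE), adjusted p = 5.88e-05). Eef2, which moves the ribosome along the mRNA, gave a log2 fold change of -0.28 (adjusted p = 0.000138), and Eef1a1, which delivers the aminoacyl-tRNAs, -0.26 (adjusted p = 0.000178). The groups of all 3 genes did not overlap. Of the 12 snoRNA host genes with this motif that were tested, 1 was lower, Snhg5 (-0.46, adjusted p = 0.00392), and none was higher (median -0.037), while Snhg3 (-0.33, adjusted p = 0.0697) and Snhg1 (-0.18, adjusted p = 0.0775) did not pass.

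Of the 106 tested genes that assemble the ribosome or make its rRNA, 10 were lower (9.43%) and 22 higher (20.8%), with a median of 0.063. Znhit6, needed for box C/D snoRNPs, had 916, 862 and 929 normalized counts in control and 1406, 1398 and 1476 after D-gal (log2 fold change 0.66 ± 0.049 (SE), adjusted p = 5.36e-05), and Wdr36, a small-subunit processing factor, was also higher (0.30, adjusted p = 0.000477). Ncl, the nucleolar protein nucleolin, fell (-0.23, adjusted p = 0.000348). Of the 77 genes for proteins of the mitochondrial ribosome, 4 were lower (5.19%) and 11 higher (14.3%), both less than among all genes tested, with a median of 0.043. Among them were Mrpl28 (-0.36, adjusted p = 0.00119), Mrpl45 (0.33, adjusted p = 0.00166) and Mrpl17 (0.33, adjusted p = 0.00252). The difference between these lists and the members was not tested.

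**Figure D5:**
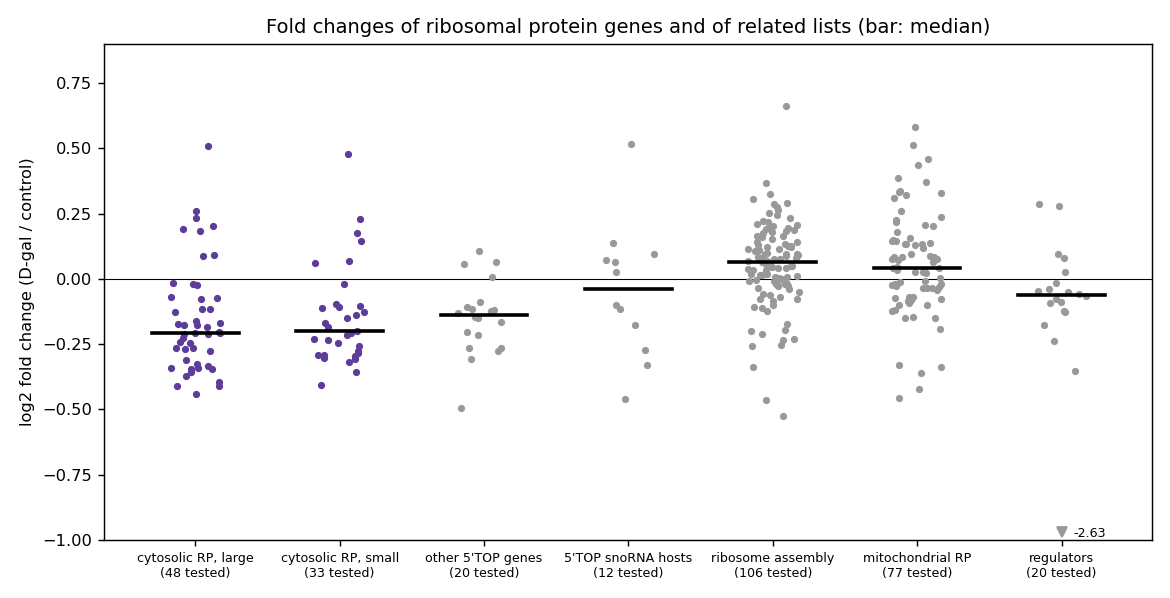
log2 fold change (D-gal over control, vertical axis) of each tested gene as a point, for the large-subunit and small-subunit ribosomal protein genes and for 5 related lists, with bars at the medians (-0.21, -0.20, -0.14, -0.037, 0.063, 0.043 and -0.061 from left to right). One regulator, Mycn, lies below the axis at -2.63 and did not pass the test.

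Of 20 regulators of these mRNAs and genes, 4 were lower (20%, near the 17.8% of all genes tested), 1 was higher (5%, against 16.9%) and 15 did not pass, with a median of -0.061. Sp1, a transcription factor of GC-rich promoters, had 2415, 2321 and 2269 normalized counts in control and 1968, 1938 and 2030 after D-gal (log2 fold change -0.24 ± 0.039 (SE), adjusted p = 0.00237). Eif4ebp2, a repressor of cap-dependent translation under mTOR, fell (-0.35, adjusted p = 0.00341), and Myc, a transcription factor that acts on ribosome genes, had 1135, 1062 and 1198 normalized counts in control and 1349, 1363 and 1427 after D-gal (log2 fold change 0.29 ± 0.055 (SE), adjusted p = 0.00509). In Sp1 and Myc the groups did not overlap.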

How the data were processed

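RNA sequencing was measured in 6 libraries of NOR-10 cells, 3 control and 3 D-gal. The authors deposited one table with raw read counts per gene, without normalization, and FPKM values, in which the authors scaled these counts to gene length and library size. Per the submitters' processing notes reads were aligned with HISAT2 (version 2.0.4), while the annotation, the counting tool, its strand setting and its treatment of reads with several matches are not given in the sources used here. The methods name a small-RNA library kit and the labels an RNA-seq kit, and the labels were followed.

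The members and lists were chosen with earlier results of these data known. Counts were fitted over all genes in R 4.3.3 with edgeR (version 4.0.16), with TMM scaling (factors 0.9855 to 1.015), filterByExpr and the quasi-likelihood test, 3 libraries against 3 without covariate, with a biological coefficient of variation of 9.47%. No replicates were duplicates, since the chi-square of each pair per degree of freedom was 6.00 to 9.42. The scripts were tested on simulated data with a common dispersion for all genes. There edgeR recovered 6 of 50 genes changed by 0.3 in log2, 29 of 50 at 0.5 and 47 of 50 at 1. Of its calls at an adjusted p under 0.05, 8.45% were false. Changes of 0.3 were therefore often missed in the simulation. Its changed genes were drawn at random from all genes tested, at any level. Of the 81 tested members 60 had a mean of at least 1000 normalized counts. The simulation therefore does not give the share of changes missed among the members.

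The genes named were, in each subunit, the 5 largest rises and falls among those past the adjusted p, the paralogs and their namesakes, the stalk, 5S and ubiquitin fusion genes, the 2 highest and 2 lowest levels per kilobase, members not tested, and of each other list the 3 genes of smallest p. Others were named after their values were seen, and a few genes that enter the fits, counts and medians are not reported here. Alternatives were RLE and upper-quartile factors, TMM without members, DESeq2 (version 1.42.0), no filter, a minimum of 10 counts per library, a replicate block, each library left out, limma (version 3.58.1) on log2(FPKM + 1) and log2(FPKM + 0.1), thinned counts, GC and length offsets (mgcv version 1.9.3), thresholds and pseudogene rows added. Near copies added were chosen after the data had been seen.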

Additional observations from a re-analysis of the deposited data

How the results depend on the processing

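Under the 20 other fits between 40 and 48 of the 48 calls of members were kept, and 1 turned in direction, Rpl23a with pseudogene rows or near copies added. With an absolute log2 fold change of 1 or more required as well, 0 members were lower and 0 higher, in all and in each subunit. At an adjusted p under 0.01, 2 members were higher, 2 of the large and 0 of the small subunit. DESeq2 called 3 large-subunit genes higher. With a library left out, 3 to 6 members were higher, 3 to 4 of the large and 0 to 2 of the small subunit, and the small-subunit median lay between -0.21 and -0.18. The large-subunit median was -0.18 with upper-quartile factors, -0.14 with limma on log2(FPKM + 1) and -0.17 on log2(FPKM + 0.1), and -0.18 with GC and length offsets, alone or with the replicate block. The small-subunit median was -0.17 with upper-quartile factors, -0.16 with limma at both pseudocounts and -0.23 with near copies added. The share of counts on the members differed by -0.30 percentage points with pseudogene rows added and by -0.31 with near copies added, in place of -0.281. The D-gal minus control difference of the large-subunit to small-subunit ratio lay between -0.013 (without Con-2) and 0.018 with a library left out and was -0.011 in sums of FPKM, in place of 0.0045. The 5′TOP list had 0 genes higher with DESeq2, with no filter and with the replicate block. Of the regulators 2 were lower with upper-quartile factors and with DESeq2, and 2 were higher with upper-quartile factors. The cause of these differences was not tested.

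Among named members, Rpl23a turned to -0.11 with pseudogene rows added and to -0.12 with near copies added, and Rps27 to -0.25 with near copies added. Rpl27, not among the members named by the rule, turned from 0.090 to -0.23 with near copies added (edgeR, adjusted p = 0.00184). Of the members named by the rule, other estimates that turned lay near 0 and did not pass the test under any setting. With a library left out Rpl22 ran from -0.16 to 0.017, Rpl22l1 from -0.079 to 0.081, Rpl7l1 from -0.045 to 0.0099 and Rps13 from -0.0035 to 0.15. Rpl22l1 was 0.00798 with upper-quartile factors and 0.00521 and 0.00504 with limma. Rpl7l1 was 0.015 with upper-quartile factors, 0.018 and 0.019 with limma and 0.0024 with thinned counts, where Rps13 was -0.0425.

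The replicate numbers did not pair the libraries (correlations of same-numbered deviations -0.0133, -0.00403 and 0.0277). With the replicate number as a block 3982 genes were called in place of 4661, and among the members 24 large-subunit genes were lower and 4 higher, and 17 small-subunit genes were lower and 1 higher.

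Depth limits what the low rows show. Rps27, Rps13 and Rpl23a rest on fewer than 100 normalized counts in the control libraries, and a member that did not pass the test is not shown to be without change. With 3 libraries a group, a library that stands apart was not looked for by a test.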
